A study of Macaca fascicularis with 132 samples.

Results

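The 7 genes described here fell when macaque blood cells were put into culture, 4 of them to few or no counts and 3 to 11.1% to 28.3% of their level at 0 h by 48 h. On the log2(CPM + 1) scale, where CPM are counts scaled by the library total, their mean levels with and without interleukin-15 (IL-15) lay within 0.25 of each other at every time sampled. They were chosen from 38550 rows of the cynomolgus count table by their measured values. For each animal and group the counts of 3 libraries were summed, scaled by the total of the sum to CPM and put on the log2(CPM + 1) scale, and the 4 animals were averaged. A gene had to reach a mean of 5 CPM in at least 1 control group, which left 10811 genes. Its control mean at 6, 24 and 48 h had to lie at least 1.5 log2 units under the control mean at 0 h, and its IL-15 mean had to lie within 0.25 log2 units of the control mean at 2, 6, 12, 24 and 48 h. Of the 10811 genes, 75 (0.694%) met the limit on culture, 2582 (23.9%) met the limit on IL-15, and 7 met both, which is 9.33% of the genes lost in culture.

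The mononuclear cells came from the blood of 4 animals of Macaca fascicularis, the cynomolgus macaque, numbered 38142, 38147, 38155 and 38157, of which 2 were female and 2 male by their labels. The tested cultures received heterodimeric IL-15, that is IL-15 bound to its receptor alpha chain, at 40 ng/ml for 2, 6, 12, 24 or 48 h. The control cultures received none and were sampled at 0, 2, 6, 12, 24 and 48 h. No genotype or age is given, the design text speaks of 6 animals, and animals beyond these 4 are not analysed here.

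Mononuclear cells of the blood are a mixture of lymphocytes, natural killer cells and monocytes. IL-15 signals through the receptor beta chain and the common gamma chain and is known for supporting natural killer cells and memory CD8+ T cells, and the alpha chain presents it to neighbouring cells. Moving blood cells into culture takes them out of plasma and away from the vessel wall, monocytes attach to plastic, and a transcript that is no longer made then falls at a pace set by its own half-life.

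Single libraries held 16423972 to 87944372 counts, and the 44 sums of 3 libraries held 54376963 to 126025607. In a sum, a floor of 3 counts came to 0.0238 to 0.0552 CPM. Nothing in the labels says whether the 3 libraries of an animal and group came from separate cultures, so the animal was the replicate. Among the libraries, 3 stood apart from the other 2 of their animal and group, 1 each in control at 2 h, IL-15 at 24 h and control at 48 h. Without them the rule took 8 genes in place of 7, and every count of the 7 genes called below, in culture and with IL-15, was the same. The gene IDs could not be paired with symbols, so neither the roles of the 7 genes nor the cell type markers that would check the labelled cells are given. The genes carry numbers from 1 to 7, and 4 are given by ID. Members 1 and 2, taken for the highest CPM at 0 h and the deepest loss, are ENSMFAG00000035395 and ENSMFAG00000002127, and members 3 and 6, ENSMFAG00000062374 and ENSMFAG00000004546, were added after their values were seen because they were higher at 2 h. Gene lengths were not at hand, so CPM orders the genes for numbering and naming alone and says nothing of which is more abundant.

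The 7 genes left the culture along 4 different courses. Member 1 fell early and then changed little in mean CPM. Members 3 and 6 were first higher at 2 h and fell afterwards. Members 5 and 7 had lost most of their counts by 2 h, and members 2 and 4 went on falling until 24 h. In bulk RNA, fewer cells of a type and less RNA per cell cannot be told apart for any of these courses. The rule compared control at 6, 24 and 48 h with 0 h, so tests below of steps that use these sums are a description.

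**Figure D1:**
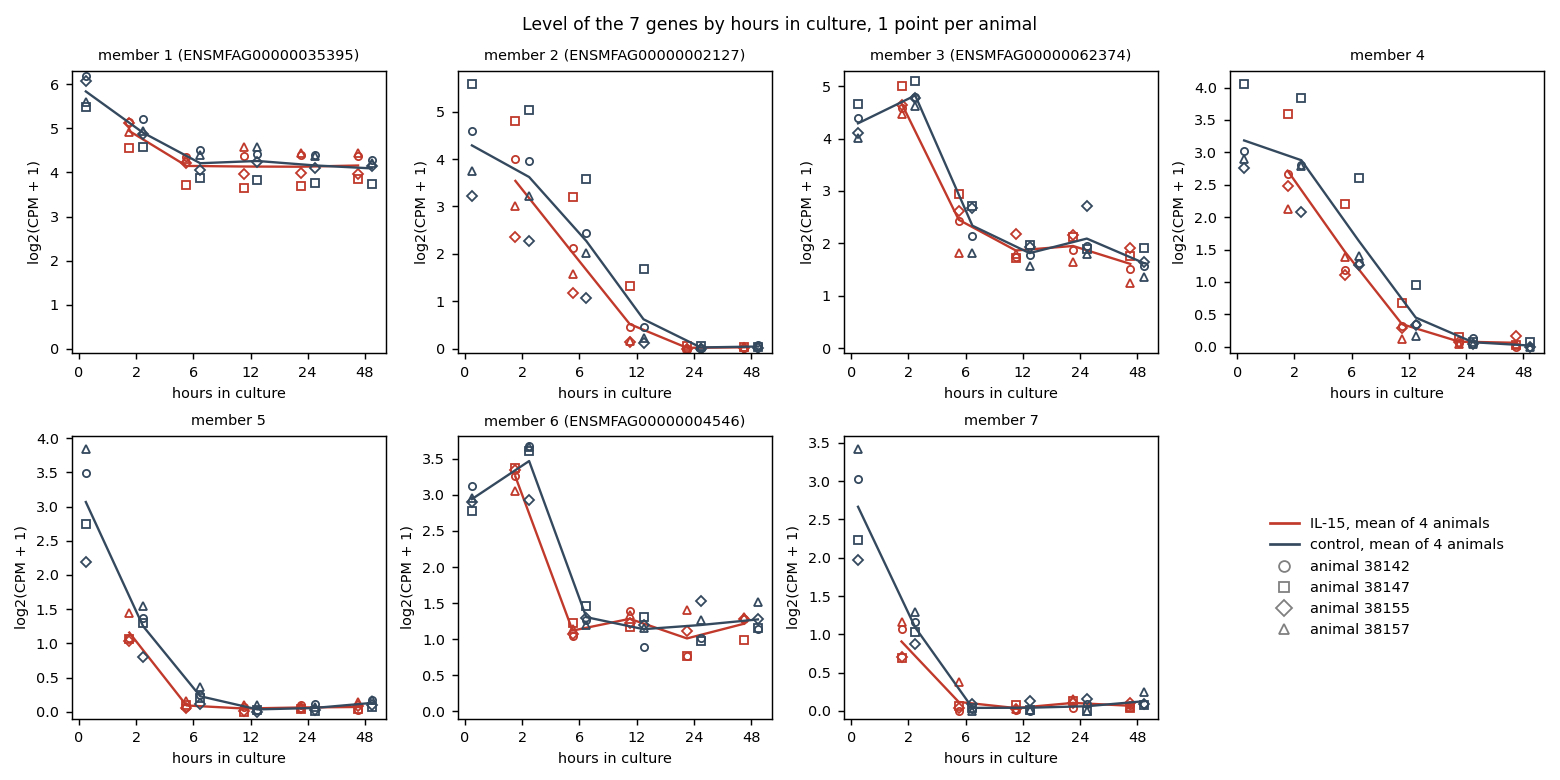
Level of each of the 7 genes in log2(CPM + 1) against hours in culture, with 1 point per animal, the mean of 4 animals as a line, and IL-15 drawn left of control at each shared time. Member 1 levels off near 4 log2 units from 6 h, members 3 and 6 peak at 2 h, and members 2, 4, 5 and 7 end near 0.

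Member 1 changed little in mean CPM from 6 h to 48 h. Its control means at 0, 2, 6, 12, 24 and 48 h were 57.4 ± 13.6, 29.3 ± 5.46, 17.8 ± 3.79, 18.5 ± 4.17, 17.2 ± 3.61 and 16.2 ± 2.71 CPM (SD, n = 4 animals). At 2 h the animals 38142, 38147, 38155 and 38157 had 36.2, 22.9, 28.1 and 29.9 CPM, against 71.6, 44.02, 66.1 and 47.7 CPM at 0 h. All 4 values at 2 h lay below all 4 at 0 h. On the log2 scale it changed by -0.91 ± 0.11 by 2 h (SE, edgeR quasi-likelihood test with the animal as a term, Benjamini-Hochberg adjusted p = 4.88e-09 over 18197 genes). At 6 h against 2 h it fell further, at -0.97 ± 0.11 (edgeR adjusted p = 1.60e-09). No later step passed the edgeR test, and the change at 48 h against 24 h was -0.06, with a 95% interval of -0.28 to 0.16 and an adjusted p of 0.859. Against 0 h the edgeR log2 fold change was -1.88 ± 0.11 at 6 h and -2.14 ± 0.11 at 48 h (SE), and 48 h against 6 h was not tested. At 48 h the mean stood at 28.3% of its value at 0 h.

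Members 3 and 6 were higher before they fell. At 2 h member 3 had 26.8, 33.4, 26.4 and 23.5 CPM in animals 38142, 38147, 38155 and 38157, against 19.9, 24.2, 16.2 and 15.2 CPM at 0 h. Each animal was higher at 2 h, although the lowest value at 2 h lay under the highest at 0 h. Member 3 rose by 0.62 ± 0.18 on the log2 scale (SE, edgeR adjusted p = 0.00315). Member 6 had 11.7, 11.2, 6.64 and 11.7 CPM at 2 h, against 7.75, 5.89, 6.45 and 6.77 CPM at 0 h. It was higher in all 4 animals, by little in animal 38155, and its rise was 0.70 ± 0.21 (SE, edgeR adjusted p = 0.00569). The sum of animal 38157 at 2 h holds 1 library that stood apart. Between libraries sharing a column-name label, the rise of member 6 in this animal was 1.22 log2(CPM + 1) units in that library. Under another label it was 0.43.

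After 2 h both fell steeply. Control means of member 3 at 0, 2, 6, 12, 24 and 48 h were 18.9 ± 4.10, 27.5 ± 4.19, 4.21 ± 1.48, 2.53 ± 0.433, 3.40 ± 1.44 and 2.10 ± 0.488 CPM (SD, n = 4). Those of member 6 were 6.71 ± 0.782, 10.3 ± 2.46, 1.48 ± 0.189, 1.21 ± 0.265, 1.32 ± 0.432 and 1.43 ± 0.307 CPM. The step to 6 h was a log2 fold change of -3.01 ± 0.19 for member 3 and -3.05 ± 0.23 for member 6 (SE, edgeR adjusted p = 1.57e-15 and 1.62e-13). Both had been chosen as low at 6 h, so a fall after the higher level at 2 h was fixed by the choice. Member 6 then changed by no step that passed the test. Member 3 fell further at 12 h against 6 h, at -0.78 ± 0.19 (edgeR adjusted p = 0.00589), and at 48 h against 24 h, at -0.67 ± 0.19 (edgeR adjusted p = 0.0348). The call at 48 h was lost without animal 38142, 38155 or 38157, with adjusted p of 0.211, 0.284 and 0.0758, and the one at 12 h without animal 38142 (adjusted p = 0.0512). At 24 h animal 38155 had 5.54 CPM of member 3, against 2.48 to 2.88 CPM in the other 3 animals.

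Members 5 and 7 lost most of their level within 2 h. Member 5 had 1.57, 1.47, 0.744 and 1.91 CPM at 2 h in animals 38142, 38147, 38155 and 38157, against 10.2, 5.72, 3.55 and 13.3 CPM at 0 h. Member 7 had 1.24, 1.04, 0.841 and 1.45 CPM at 2 h, against 7.19, 3.71, 2.93 and 9.71 CPM at 0 h. For both genes every value at 2 h lay under every value at 0 h. The log2 fold change by 2 h was -2.36 ± 0.28 for member 5 and -2.22 ± 0.49 for member 7 (SE, edgeR adjusted p = 6.90e-09 and 0.000226), and the means at 2 h were 17.3% and 19.4% of those at 0 h. By 6 h member 5 was at 2.10% and member 7 at 0.474% of its level at 0 h.

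The later traces of both genes rested on few counts. Over the 4 control sums together, member 5 had 65, 8, 12 and 30 counts at 6, 12, 24 and 48 h, and member 7 had 10, 14, 14 and 31. For member 5 the step to 12 h passed the edgeR test (log2 fold change -2.92 ± 0.50, adjusted p = 0.000169), and the steps after it did not (adjusted p = 0.609 and 0.220). For member 7 no step after 6 h passed (adjusted p = 0.903, 0.924 and 0.635).

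Members 2 and 4 fell over a day. Control means of member 2 at 0, 2, 6 and 12 h were 22.8 ± 17.4, 14.7 ± 12.4, 4.85 ± 4.25 and 0.703 ± 0.999 CPM (SD, n = 4), and from 24 h no sum held more than 3 counts. Those of member 4 were 8.75 ± 4.64, 7.11 ± 4.32, 2.39 ± 1.80 and 0.398 ± 0.360 CPM, with 16 counts over the 4 sums at 24 h and 4 at 48 h. Animal 38147 stood above the others in both genes. At 12 h member 2 had 0.361, 2.19, 0.0873 and 0.172 CPM in animals 38142, 38147, 38155 and 38157, against 23.2, 47.1, 8.34 and 12.4 CPM at 0 h, and all 4 animals were lower. Member 4 had 0.274, 0.929, 0.262 and 0.126 CPM at 12 h, against 7.09, 15.7, 5.80 and 6.44 CPM at 0 h, again lower in all 4.

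Each step of members 2 and 4 from 2 h to 24 h passed the test. For member 2 the log2 fold change was -1.87 ± 0.22 at 6 h against 2 h, -3.21 ± 0.25 at 12 h against 6 h and -5.12 ± 0.49 at 24 h against 12 h (SE, edgeR adjusted p = 5.29e-09, 3.41e-11 and 4.76e-09). The value at 24 h rests on 5 counts over the 4 control sums, so its size is no firm measure. For member 4 the same 3 steps were -1.89 ± 0.30, -2.72 ± 0.34 and -2.84 ± 0.50 (SE, edgeR adjusted p = 2.11e-06, 1.04e-06 and 0.000385). Over the first 2 h member 2 was called lower, at -0.67 ± 0.21, with a 95% interval of -1.10 to -0.24 (edgeR adjusted p = 0.00757). Member 4 was not called, at -0.25, with a 95% interval of -0.84 to 0.34 (edgeR adjusted p = 0.495). It too was lower at 2 h in all 4 animals. The intervals overlap, and a difference between the 2 genes was not tested. Without animal 38155 the early fall of member 2 was -0.51 and its call was lost (adjusted p = 0.0812), and without animal 38147 the step of member 4 at 24 h lost its call (-2.10, adjusted p = 0.0634).

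Counted over the 7 genes, the first 2 h moved 4 down and 2 up in the edgeR test, at a background of 28.4% of all 18197 genes lower and 24.5% higher. The median log2 fold change of the 7 was -0.67, against -0.13 over all genes tested. In 3 of the 7, members 1, 5 and 7, the 4 sums at 2 h lay under the 4 at 0 h, a separation that 17.4% of all genes showed. At 6 h against 2 h all 7 passed in the downward direction (background 26.1%). At 12 h against 6 h 4 passed downward (3.4%), members 2, 3, 4 and 5. At 24 h against 12 h 2 passed (1.53%), members 2 and 4, and at 48 h against 24 h only member 3 (1.59%). None of the 7 was called higher at a step after 2 h. Of all 18197 genes, 4884, 765, 459 and 386 were called higher at those steps in order. The genes had been chosen as low from 6 h, so nothing is read from this absence. Without the animal term in the fit, 8 of the calls of the 7 genes were lost, all of members 2, 3 and 4, with adjusted p of 0.056 to 0.69 (edgeR). These steps share their sums at 0, 6, 24 and 48 h with the limit on culture, which had already asked for low values from 6 h. The control sums at 2 h and 12 h did not enter the limit on culture, but they entered the limits on level and on IL-15.

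**Figure D2:**
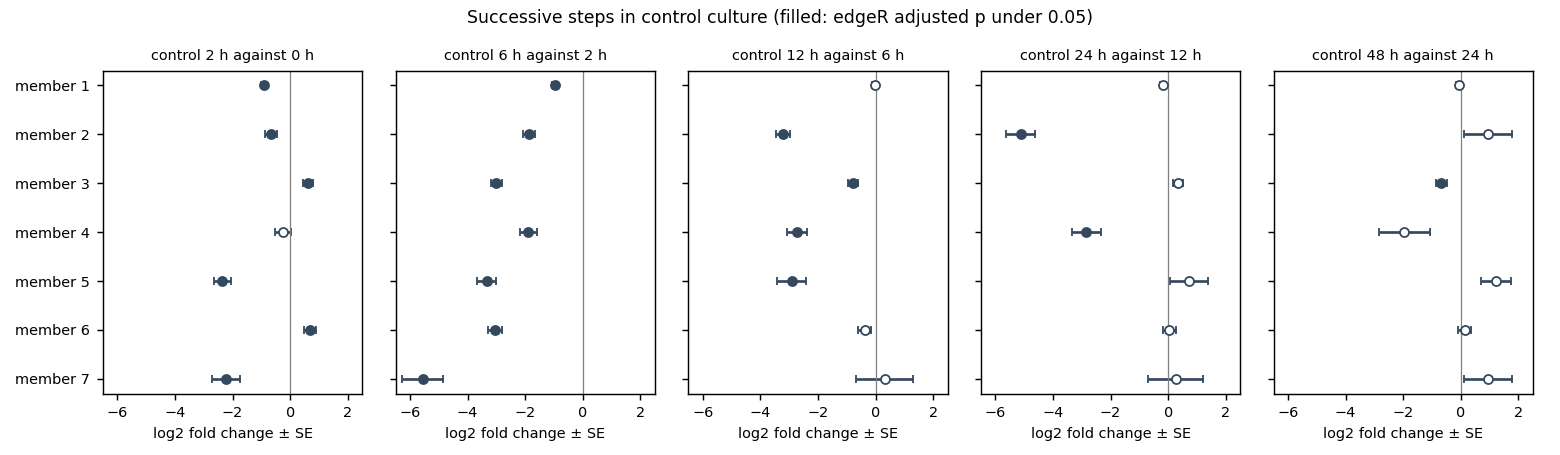
Log2 fold change with SE of each of the 7 genes over 5 successive steps of control culture, from the edgeR fit over 44 sums, with filled points where the adjusted p was under 0.05. Members 3 and 6 lie right of 0 in the first panel, all 7 lie left of 0 in the second, and members 2 and 4 are the 2 filled points in the fourth.

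At 12 h all 7 genes were lower than at 0 h in the edgeR test (background 24.9%). This is a description: the comparison shares its 0 h sums with the limit on culture, and the genes had been chosen as low at 6, 24 and 48 h. Their log2 fold changes ran from -1.91 ± 0.11 for member 1 to -8.60 ± 0.43 for member 5 (SE, n = 4 animals), with a median of -4.86, against 0.01 over all genes. Members 5 and 7 had 8 and 14 counts over the 4 control sums at 12 h, so the sizes of their folds are no firm measure. In all 7 the 4 sums at 12 h lay under the 4 at 0 h, which 6.71% of all genes showed. On the log2(CPM + 1) scale the median change at 12 h was -2.62 in the 7 and -2.73 in the 68 other genes lost in culture. At the 3 times the rule used, 6, 24 and 48 h, all 7 were likewise called lower (backgrounds 25.5%, 25.4% and 26.9%), which the choice had fixed. Single animals followed the means: all 84 values of 7 genes, 4 animals and those 3 times were below 0, 73 were at or under -1.5, and the weakest was -1.22.

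The animals differed widely in how much of these transcripts they carried at 0 h, more for some genes than for others. The highest animal had 5.65 times the CPM of the lowest for member 2, 3.75 times for member 5, 3.32 times for member 7 and 2.70 times for member 4. For members 1, 3 and 6 the ratio was 1.63, 1.60 and 1.32. Animal 38147 was the highest for members 2 and 4, with single libraries at 37.8, 43.7 and 57.8 CPM of member 2, all above the 7.48 to 23.2 CPM of the other 9 libraries. Members 5 and 7 shared another order, with animal 38157 highest, then 38142, 38147 and 38155. These orders were read after the values were seen, and no test was made of them.

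At 2 h and 6 h in control culture members 2 and 4 kept animal 38147 on top. At 2 h it had 31.997 CPM of member 2, against 3.80 to 14.6 CPM in the other animals, and 13.3 CPM of member 4, against 3.23 to 5.97 CPM. At 6 h it had 10.9 CPM of member 2 and 5.08 CPM of member 4, against 1.08 to 4.42 and 1.40 to 1.64 CPM in the others. The same animal also led in IL-15 culture, with 8.24 CPM of member 2 and 3.58 CPM of member 4 at 6 h, against 1.27 to 3.37 and 1.15 to 1.62 CPM in the others.

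No difference between females and males was called. With limma on each animal's mean culture change over 6, 24 and 48 h, 0 of the 7 genes and 0 of 18197 genes passed an adjusted p of 0.05, and 0 of the 7 and 649 of all had an unadjusted p under 0.05. For the mean IL-15 difference over 5 times, 0 of the 7 and 0 of all passed, with 1 of the 7 and 1157 of all at an unadjusted p under 0.05. The 1 was member 7, at -0.36 in females and 0.66 in males on the log2 scale, a difference of -1.02 (unadjusted p = 0.00662, adjusted p = 0.734, limma). At 6, 12, 24 and 48 h this gene had 21, 9, 25 and 16 counts over all IL-15 sums. In control it had 10, 14, 14 and 31, so the size of this difference is no firm measure. An edgeR interaction called 0 of the 7 and 0 of all genes for both measures, where 540 and 1386 genes had unadjusted p-values under 0.05. These tests set 2 animals against 2, and a p that misses the threshold does not show that the sexes were alike.

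The closeness of IL-15 and control was part of the rule and is given as a description. Over the 5 times the largest mean difference of any member, on the log2(CPM + 1) scale, ran from 0.126 for member 1 to 0.248 for member 2. The 3 nearest values inside the limit were 0.248, 0.216 and 0.184, and the 3 nearest outside among the genes lost in culture were 0.253, 0.262 and 0.284. For the limit on culture the 3 nearest inside were -1.54, -1.63 and -1.64, and outside -1.46, -1.39 and -1.31. For the limit on level the lowest member stood at 5.88 CPM, and the 1 gene that missed only this limit stood at 2.81 CPM.

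Member 1 shows the closeness at a level where counts were plentiful. With IL-15 it had 19.8, 13.5, 14.5 and 20.8 CPM at 48 h in animals 38142, 38147, 38155 and 38157, against 18.3, 12.3, 16.7 and 17.6 CPM in control. The ranges overlapped, and 3 of 4 animals were higher with IL-15. The edgeR log2 fold change was 0.18 ± 0.11 (SE, 95% interval -0.04 to 0.40, adjusted p = 0.184). Over the 5 times its intervals lay between -0.25 and 0.40, and for members 3 and 6 the 10 intervals lay between -0.77 and 0.89. They come from the sums that chose the genes and set no bound on the effect of IL-15.

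**Figure D3:**
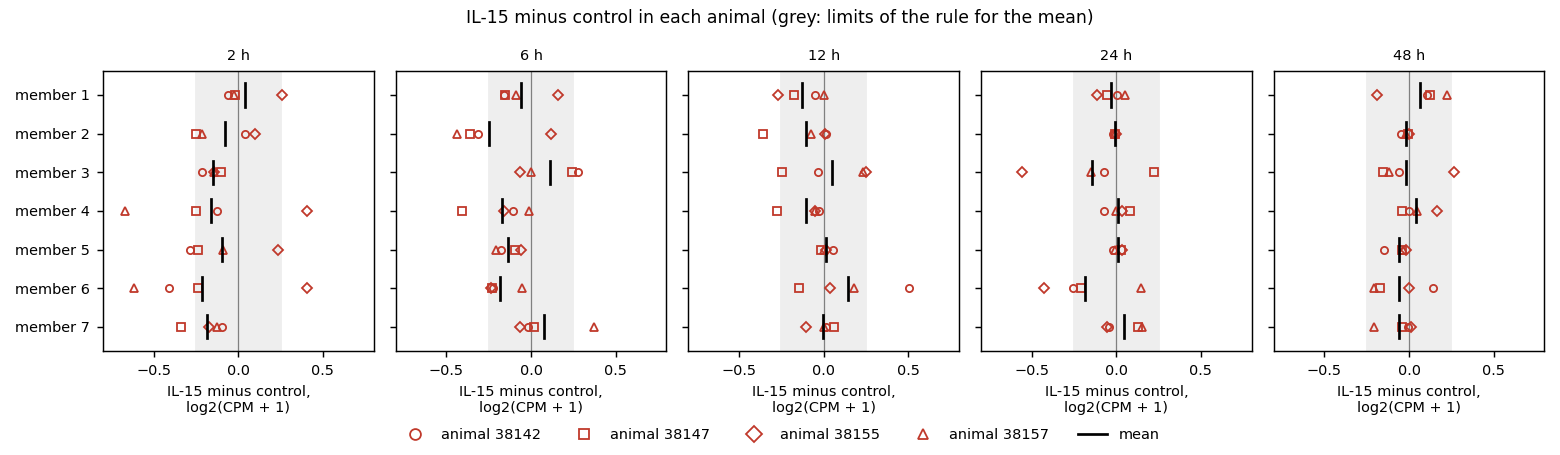
IL-15 minus control on the log2(CPM + 1) scale for each of the 7 genes in each of 4 animals (points) with the mean (black bar) at 5 times, the grey band marking the limit of 0.25 that the rule set on the mean. Points outside the band are most numerous at 2 h, 10 of 28, and fewest at 48 h, 1 of 28.

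Single animals left the band that their means kept. Of 140 values, 25 lay more than 0.25 from 0, the lowest -0.67 and the highest 0.50. They numbered 10, 6, 5, 3 and 1 of 28 at the 5 times in order. Member 6 gave 6 of them, and members 2 and 4 gave 5 each. The lowest of them belonged to member 4 at 2 h, which had 5.38, 11.006, 4.60 and 3.36 CPM with IL-15 in animals 38142, 38147, 38155 and 38157, against 5.97, 13.3, 3.23 and 5.94 CPM in control. Animal 38155 was higher with IL-15 there and the other 3 were lower. The value of -0.67 was that of animal 38157, whose control sum at 2 h holds 1 of the libraries that stood apart. Between libraries of this animal that share a column-name label, member 4 differed by -0.97 where that library was the control. Under another label it differed by -0.28. For member 6 the same differences were -1.14 and -0.10, so this library weighs on the values at 2 h.

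For 4 of the 7 genes the scale of the rule left little room for a difference at late times. In control culture at 24 h and at 48 h members 2, 4, 5 and 7 averaged under 0.1 CPM, which was so for 1 of the 68 other genes lost in culture. Under 1 CPM were the same 4 of the 7, and 9 of the 68 at 24 h and 13 at 48 h. The rule used these control values, so the counts are a description. Member 7 already averaged 0.0279 CPM in control at 6 h, and member 5 averaged 0.0239 CPM at 12 h. Adding 1 to such a value brings its log2 close to 0, and a further loss cannot move it by 0.25. Member 2 had 3 counts over the 4 IL-15 sums at 24 h and 5 over the 4 control sums, and 6 and 9 at 48 h. No sum held more than 3 of them, so both groups were at the floor and no fold is given. The 95% intervals of the edgeR log2 fold change reached -2.46 for member 7 and 3.83 for member 4 at 48 h.

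The edgeR test, which adds no 1, called none of the 7 at any single time, at backgrounds of 2.16%, 8.66%, 31.5%, 39% and 40.2% of all genes from the first time to the last, or over the 5 times jointly (53.9%). The rule had asked for small differences in these same sums, so nothing is read from this count. At an unadjusted p under 0.05 there was 1 member at 6 h, 1 at 48 h and 1 jointly, and none at the other times. Over all 18197 genes the counts at that threshold were 2036, 3705, 7517, 8567 and 8804 at the 5 times in order, and 10740 jointly (edgeR). DESeq2 called 1 at 6 h and 1 at 48 h. Its share over all genes is not given here, so nothing is read from these calls. At 2 h the edgeR log2 fold changes of all 7 were below 0, down to -0.44 for member 7, with a median of -0.21, against -0.02 over all genes. On the log2(CPM + 1) scale 6 of the 7 were below 0 and member 1 was at 0.04, and the median was -0.15 in the 7 and -0.17 in the 68 other genes lost in culture.

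The gene at 6 h was member 5. With IL-15 it had 0.0445, 0.0728, 0.0349 and 0.110 CPM in animals 38142, 38147, 38155 and 38157, against 0.179, 0.147, 0.0799 and 0.282 CPM in control, from 17 and 65 counts. It was lower with IL-15 in 4 of 4 animals, and the groups overlapped. On the scale of the rule this was -0.135 ± 0.068 (SD), inside the limit, and in edgeR the log2 fold change was -1.33 ± 0.45 (SE, 95% interval -2.24 to -0.43, adjusted p = 0.055). With the pair of sums of an animal and time as a block the fold change was -1.35 and passed (edgeR adjusted p = 0.0359), and DESeq2 gave -1.38 (adjusted p = 0.0429). Over 13 alternatives its adjusted p ran from 0.0293 to 0.407.

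At 48 h it was member 4, which had 0, 0.0239, 0.123 and 0.0311 CPM with IL-15, against 0, 0.0522, 0 and 0 CPM in control. The 16 counts with IL-15 and 4 in control overlapped between groups, 11 of the 16 came from animal 38155, and all 4 in control from animal 38147. The edgeR log2 fold change was 2.04 ± 0.89 (SE, adjusted p = 0.0648), DESeq2 gave 2.24 (adjusted p = 0.0278), and over 14 alternatives the adjusted p ran from 0.00655 to 0.843. The lowest came without animal 38147, which leaves the control sums at 0 counts, so the fitted value of 5.17 there is no measure of size.

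The other 68 genes lost in culture were those whose IL-15 difference left the limit at 1 time or more. The largest difference over the 5 times had a median of 0.171 (0.126 to 0.248) in the 7, against 0.742 (0.253 to 2.82) in the 68, which the rule sets. With IL-15, 2, 10, 23, 17 and 28 of the 68 were at least 0.25 higher at 2, 6, 12, 24 and 48 h, and 19, 12, 24, 29 and 23 were at least 0.25 lower. Most of those outside the limit at 2 h were thus lower, and both directions occurred at every time. The change at 2 h of culture had a median of -0.67 on the log2(CPM + 1) scale in the 7, against -0.84 in the 68, and 2 of the 7 and 6 of the 68 were above 0. This difference was not tested.

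**Figure D4:**
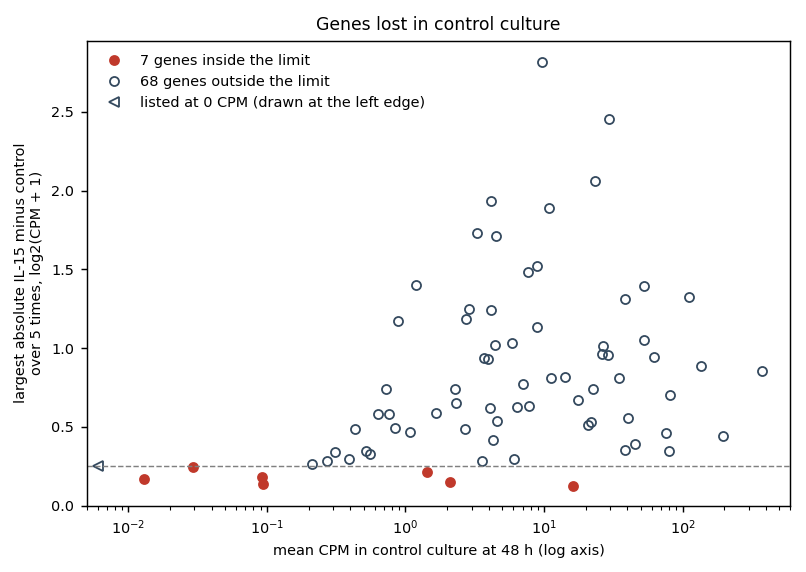
The 75 genes lost in control culture, with mean control CPM at 48 h on a log axis and the largest absolute IL-15 minus control difference over 5 times on the log2(CPM + 1) scale, the dashed line marking 0.25. Of the 7 genes under the line, 4 lie under 0.1 CPM, where 1 of the 68 others, listed at 0, is also found.

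Choosing the genes in 3 animals and reading them in the fourth gave values that the choice had not used. The 4 choices overlap, and they took 9, 10, 5 and 7 genes when animals 38142, 38147, 38155 and 38157 were left out. Of these 31 choices, 30 had all 3 culture changes below 0 in the animal left out, and 23 had all 3 at or under -1.5. All 5 IL-15 differences stayed within 0.25 in 11 of the 31, and both limits held in 8. The 2 limits differ in width, so these shares are given side by side and were not compared by a test. Of the genes chosen, 6, 6, 4 and 5 were among the 7, so the same genes recur in the 31. In animal 38142, when left out, the weakest culture change was 0.116 and the largest absolute IL-15 difference 1.31. The share of all genes within these limits in a single animal is not given here, so nothing is read from these counts.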

How the data were processed

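The authors deposited whole-number counts per gene per library, not normalized, in a table with cynomolgus and a table with rhesus gene IDs. The aligner, the counting tool and the build were not given in the sources used here. Members, lists and tests were chosen with earlier results of these data known. Counts of the 3 libraries of an animal and group were summed to 44 sums. The rule used raw totals. Tests used edgeR 4.0.16 in R 4.3.3 (TMM, filterByExpr, robust quasi-likelihood, the animal as a term, 18197 genes, Benjamini-Hochberg), with limma 3.58.1 for the sexes and DESeq2 1.42.0 as an alternative; scripts were tested on simulated data. The SE given with edgeR is the size of the log2 fold change over the square root of the F statistic of its test. The 95% intervals were built from that SE, and both are rough where counts are near 0. All 7 members passed the filter, members 2, 4, 5 and 7 only through their levels before 24 h. The labels name the same animals in every group, and same-animal IL-15 and control sums deviated together in 20 of 20 pairs (lowest correlation 0.604). With no symbols, the rule for IDs took the member with the highest CPM at 0 h, uncorrected for length, and the one with the deepest loss; members 3 and 6 were added after their values were seen. The sources hold 0 IDs that match the reference table, so symbol lists, cell type markers and sequences were not used. PCR copies of a molecule cannot be told from separate molecules here, so floors cover counting error only. Leaving out 3 libraries was an alternative chosen after seeing the data.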

Additional observations from a re-analysis of the deposited data

Results flagged for a closer look

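In 12 of 77 combinations of a member and a group, 1 of the 4 animals stood far from the other 3. The measure was the gap to the nearest animal over the range of the 4 CPM values. About 3.85 would be flagged by chance if the values were independent and normally distributed. They were not independent, since the same 4 animals recur in all 77, and some flagged values rest on few counts. The 12 are therefore a list for a closer look, and no excess over chance is read from them. Animal 38147 was the high one for member 2 in control at 12 h (2.19 CPM, others 0.0873 to 0.361). It was also high for member 4 in control at 0 h (15.7 CPM, others 5.80 to 7.09), at 6 h (5.08 CPM, others 1.40 to 1.64) and at 48 h (0.0522 CPM from 4 counts, others at 0). For member 6 with IL-15 at 48 h the same animal was low (0.980 CPM, others 1.42 to 1.48). Animal 38155 was high for member 3 with IL-15 at 12 h (3.54 CPM, others 2.30 to 2.49) and in control at 24 h (5.54 CPM, others 2.48 to 2.88). It was low for member 6 in control at 2 h (6.64 CPM, others 11.2 to 11.7) and high for member 7 in control at 12 h (0.0952 CPM from 12 counts, others 0 to 0.0124). Animal 38157 was high for member 5 with IL-15 at 2 h (1.73 CPM, others 1.05 to 1.11). For member 7 it was high with IL-15 at 6 h (0.294 CPM from 16 counts, others 0 to 0.0437) and in control at 48 h (0.189 CPM from 16 counts, others 0.0522 to 0.0685).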

How the results depend on the processing

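The number of genes that met the rule was 7, and 11 with TMM effective library sizes (6 of the 7 among them), 4 at a minimum of 10 CPM, 13 at an IL-15 limit of 0.3, 15 at a culture limit weaker by 0.25 and 3 at -2, and 5 to 10 with 1 animal left out. At 2 h against 0 h 2 members were called lower where at least 5 CPM was required in 4 sums, which tests 5 members. With no replicate block, that is without the animal term, 1 was called higher at that step, 1 lower at 12 h against 6 h, 1 at 24 h against 12 h and 0 at 48 h against 24 h. Leaving out 1 animal gave 1 to 2 lower at 24 h against 12 h and 0 to 1 at 48 h against 24 h. For IL-15 at 6 h 1 member was called with DESeq2, with raw totals, and with a replicate block of library numbers or of the pair of sums (member 5 each time). At 48 h 1 was called with DESeq2, with column-name sets as a term, and with a replicate block of library numbers (member 4). Leaving out 1 animal gave 0 to 1 at 12 h (member 6 without animal 38147, 0.62, adjusted p = 0.0495) and 0 to 1 at 48 h (member 4 without animal 38147, with control then at 0 counts). No other count of members called moved by over 1.5 times under the alternatives run, with or without the block. No called direction of a member reversed. The fits with library numbers or column-name sets took single libraries as units, whereas the animal was the replicate elsewhere. Shares of all genes called under these alternatives are not given here, so nothing is read from the counts of members called. Raw totals in place of TMM moved the median of all genes to 0.39 at 24 h against 0 h in control, from 0.06, and to -0.23 for IL-15 at 12 h, from -0.04. At a floor of 0.0238 to 0.0552 CPM, depth limits what can be said of members 5 and 7 from 6 h and of members 2 and 4 from 24 h.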

Other observations

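In the table with rhesus gene IDs the rule took 9 of 10772 genes that reached 5 CPM, out of 77 lost in culture. Their levels at 0 h ran from 6.35 to 72.5 CPM. The IDs of both tables could not be paired, so it is not known which of the 9 are among the 7.

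Column names carry a library label that splits the libraries into 6 sets, whose meaning the labels do not give. Where an animal had libraries of 1 set both in control culture and at 0 h, the culture changes of the 7 genes could be read within that set. At 6, 24 and 48 h there were 5, 4 and 6 such pairs of a set and an animal. Of their values, 35 of 35, 28 of 28 and 42 of 42 were below 0, with medians of -1.86, -2.42 and -2.77 on the log2(CPM + 1) scale. The rule had asked for low values at these times in these libraries, so nothing is read from the signs. At 2 h 24 of 35 values were below 0, and at 12 h 42 of 42. The 7 genes of a pair are not replicates. Within such sets 18 of 28 IL-15 differences lay within 0.25 at 2 h, 14 of 21 at 6 h, 24 of 35 at 12 h, 9 of 14 at 24 h and 35 of 42 at 48 h. These came from 4, 3, 5, 2 and 6 pairs of a set and an animal. At 2 h 25 of the 28 were below 0. Among them, in animal 38157, were -1.14 for member 6 and -0.97 for member 4, against the control library that stood apart. No share over all genes is given for the counts below 0 within sets, so nothing is read from them. The rule had set the limit of 0.25 on means over these libraries.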
